A study of Mus musculus with 72 samples.

Results

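Interferon-stimulated genes were followed in the kidneys of mice exposed to 177Lu, a beta-emitting radionuclide used in radionuclide therapy. The set was a list of 34 genes that interferons induce in mice. Each gene was found by its symbol in the probe table of the array and read from its brightest probe. A gene counted as measured where the intensity of that probe was 150 or more on all 3 arrays of any group. Of the 34 genes, 33 had a probe and 27 were measured, among 16593 genes with a probe and 9024 measured genes in the whole series. The rule uses the level of a probe and no difference between groups.

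Total RNA of the kidney cortex and the kidney medulla of Balb/c mice was hybridised to Illumina bead arrays. Each tissue had control samples and samples with an absorbed dose of 0.3 Gy, 3 Gy or 10 Gy, at 1.5, 3 and 4.5 months, with 3 samples in each of the 24 groups. The control labels also name the nuclide but give no absorbed dose, and what the controls received is not given in the sources used here, nor are the age and sex of the animals. The array of cortex control sample 3 at 1.5 months was left out by the rule that set the groups, so 71 arrays were used, 35 of cortex and 36 of medulla. That array stood apart over the whole table: its mean correlation with the other cortex arrays was 0.648, against at least 0.974 for each of the others. Where it changes a result, the value with it is given. Whether samples sharing a group stem from different animals is not given in the labels, so each p-value reflects the scatter among these samples, which may be technical. Precision is limited by how many arrays there are. Values are log2 of the deposited intensities, which share nearly 1 distribution across arrays, so a difference of 1 is a change by a factor of 2. Levels are compared between samples for 1 probe at a time, never between probes.

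Interferons are secreted proteins that cells release after sensing viral or misplaced nucleic acid (type I, such as IFN-alpha and IFN-beta) or that T and NK cells release on activation (type II, IFN-gamma). Type I interferon acts on a promoter element called the ISRE, which IRF9 helps to bind, and IFN-gamma acts on an element called GAS and through the factor IRF1. Immunity-related GTPases, guanylate-binding proteins and IRF1 answer strongly to IFN-gamma, whereas the IFIT, OAS and MX proteins are best known from the answer to type I interferon, and many genes answer to both.

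By role, the measured genes were the transcription factors Irf1, Irf7, Irf9 and Stat2, and the ubiquitin-like modifier Isg15 with its protease Usp18. The nucleic acid sensors Ifih1, Dhx58 and Zbp1 were measured too, as was Trim25, a ubiquitin ligase of RNA sensing. They also took in the RNA-binding Ifit2 and Ifit3 with the oligoadenylate synthetase family members Oas2, Oasl1 and Oasl2. The antiviral effectors were Rsad2, Mx2, Bst2 and Ifitm3, and the GTPases were Gbp2, Gbp3, Igtp and Irgm1. The remaining measured genes were Ifi35, Parp14, Ifi27 and Lgals3bp. Of the 27, 19 were at or above the floor in all 24 groups. The other 8 passed in some groups only: Irf7 and Oas2 in 16, Trim25 and Oasl1 in 21, Ifi35 in 20, Dhx58 and Mx2 in 5 and Ifih1 in 4, so their differences lie close to the background of the array. Ifit1, Mx1, Oas1a and Xaf1 were under the floor on all 71 arrays. Rtp4 reached it on 6 arrays and Iigp1 on 11, and no group of either passed. Ifi44 had no probe in the table used. The Ifit3 probe may also read Ifit3b, a near-identical copy.

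The promoter windows of 5 genes are shown because these genes carry the pattern described next or stand for its classes. Igtp, Gbp2 and Irf1 are known answers to IFN-gamma, and Ifit3 and Isg15 to type I interferon. Sequences are from RefSeq on GRCm38.p6, each running 5′ to 3′ on the strand of the gene from 250 bases before to 50 bases after a start given in that table. For Ifit3 that start lies inside the span of the gene printed further on, so its window lies downstream of the first base of that span. The windows lie at chr11:58199306-58199605 (plus strand) for Igtp, chr3:142620413-142620712 (plus) for Gbp2, chr11:53769764-53770063 (plus) for Irf1, chr19:34583279-34583578 (plus) for Ifit3 and chr4:156200769-156201068 (minus) for Isg15. Capitals mark matches on either strand to GAAANNGAAA, an ISRE-like word, or TTCNNNGAA, a GAS-like word; the ISRE-like matches of Gbp2 and Ifit3 are on the other strand and are printed as their reverse complement.
Igtp: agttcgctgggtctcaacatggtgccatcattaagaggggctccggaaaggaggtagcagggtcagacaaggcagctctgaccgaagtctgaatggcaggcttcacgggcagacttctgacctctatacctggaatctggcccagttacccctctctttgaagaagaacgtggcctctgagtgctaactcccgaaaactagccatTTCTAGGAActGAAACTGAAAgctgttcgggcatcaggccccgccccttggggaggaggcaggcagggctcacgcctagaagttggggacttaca
Gbp2: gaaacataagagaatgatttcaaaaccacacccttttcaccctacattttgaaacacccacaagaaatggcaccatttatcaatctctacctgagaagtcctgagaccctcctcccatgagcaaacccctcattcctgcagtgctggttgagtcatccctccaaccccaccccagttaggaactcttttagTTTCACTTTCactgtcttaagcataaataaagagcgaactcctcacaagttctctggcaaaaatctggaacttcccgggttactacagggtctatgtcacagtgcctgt
Irf1: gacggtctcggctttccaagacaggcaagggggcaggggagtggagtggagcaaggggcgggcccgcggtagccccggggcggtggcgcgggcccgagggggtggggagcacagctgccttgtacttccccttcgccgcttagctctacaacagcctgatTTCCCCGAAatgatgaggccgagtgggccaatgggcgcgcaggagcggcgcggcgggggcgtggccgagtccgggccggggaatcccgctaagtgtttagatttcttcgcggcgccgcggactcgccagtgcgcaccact
Ifit3: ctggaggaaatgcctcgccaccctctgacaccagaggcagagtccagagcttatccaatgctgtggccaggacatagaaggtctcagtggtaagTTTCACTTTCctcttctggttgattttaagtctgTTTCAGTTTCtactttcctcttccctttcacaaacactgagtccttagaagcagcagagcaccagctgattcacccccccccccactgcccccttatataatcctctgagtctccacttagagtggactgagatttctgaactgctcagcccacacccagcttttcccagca
Isg15: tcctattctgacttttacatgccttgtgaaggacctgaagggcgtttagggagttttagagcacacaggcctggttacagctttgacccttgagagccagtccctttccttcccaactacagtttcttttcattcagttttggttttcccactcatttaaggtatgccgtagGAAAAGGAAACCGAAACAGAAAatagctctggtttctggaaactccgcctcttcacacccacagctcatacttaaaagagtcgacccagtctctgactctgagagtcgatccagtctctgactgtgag
In the Igtp window the GAS-like match began 45 bases before the gene start and the ISRE-like match 34 bases before it. The 3 ISRE-like matches of Isg15 overlap. Ifit3 held 2, Gbp2 held 1, and Irf1, whose window with the most matches of 2 is shown, held a GAS-like match alone. Of the 34 genes, 24 had a window in the table used. The ISRE-like word was in 13 of these 24, against 3.44% of all 32851 windows and 3.99% of the 27025 genes. The GAS-like word was in 7 of the 24, against 8.3% of windows and 9.55% of genes, and 4 genes held both (Oas1a, Bst2, Ifitm3 and Igtp). A match is a description of letters and not a bound site, and its absence says only that these letters are not in the window.

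Several of these genes differed widely between samples of the same group. Igtp, an immunity-related GTPase that guards against intracellular parasites (chr11:58199556-58207592), spanned 7.94 to 12.42 over the 35 cortex arrays with a median of 8.79. At 4.5 months its cortex values, in the order of replicate numbers 1 to 3, were 9.78, 12.42 and 9.40 in controls, 8.79, 9.35 and 10.37 at 0.3 Gy, 10.27, 10.70 and 9.16 at 3 Gy and 12.33, 8.84 and 8.38 at 10 Gy. Single samples stood high in the control and the 10 Gy group alike, and all 4 groups overlapped. At 3 months they were 8.96, 7.94 and 8.50 in controls, 8.90, 8.34 and 8.30 at 0.3 Gy, 8.51, 8.54 and 8.43 at 3 Gy and 11.30, 8.74 and 8.48 at 10 Gy. At 1.5 months they were 8.69 and 8.33 in the 2 controls, 8.38, 8.36 and 8.58 at 0.3 Gy, 9.97, 8.41 and 8.99 at 3 Gy and 8.87, 8.66 and 9.14 at 10 Gy. One sample of the 10 Gy group at 3 months and one of the 3 Gy group at 1.5 months thus stood above the rest of their time point.

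In the medulla Igtp spanned 8.22 to 11.47. At 4.5 months it was 9.06, 11.22 and 9.22 in controls, 8.90, 9.67 and 10.03 at 0.3 Gy, 9.52, 10.14 and 8.86 at 3 Gy and 11.47, 8.63 and 8.73 at 10 Gy. The highest value of each of these 4 groups carried the same replicate number as the highest value of that group in the cortex. The high 3 Gy sample at 1.5 months also recurred, with medulla values of 9.96, 8.31 and 8.57. The high 10 Gy cortex sample at 3 months did not, since the medulla values there were 9.18, 10.25 and 9.09 and the highest had another number.

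Gbp2, a guanylate-binding protein of cell-autonomous immunity (chr3:142620663-142638008), behaved alike. Its cortex values at 4.5 months were 9.33, 11.55 and 9.0 in controls, 8.14, 9.11 and 9.62 at 0.3 Gy, 9.65, 10.06 and 9.07 at 3 Gy and 11.45, 8.45 and 8.40 at 10 Gy. The control and 10 Gy groups each held 1 sample far above its partners, and the groups overlapped. Irf1, a transcription factor that IFN-gamma induces (chr11:53770014-53778374), read 10.82, 12.09 and 10.98 in these controls, 10.33, 10.76 and 10.92 at 0.3 Gy, 11.11, 11.14 and 10.92 at 3 Gy and 12.33, 10.64 and 10.49 at 10 Gy. Ifit3, which binds viral RNA with other IFIT proteins (chr19:34583119-34588982), read 9.83, 10.80 and 9.47 in controls, 8.76, 9.29 and 10.14 at 0.3 Gy, 9.49, 10.06 and 8.53 at 3 Gy and 10.88, 8.64 and 8.87 at 10 Gy. Control sample 2 and 10 Gy sample 1 were the highest of their groups for all 4 genes. Isg15, the ubiquitin-like modifier of the pathway (chr4:156199424-156200818), read 8.10, 8.62 and 7.94 in controls and 8.54, 7.42 and 7.72 at 10 Gy, again with these samples highest. In bulk tissue, fewer cells of a type and less RNA per cell cannot be told apart.

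**Figure D1:**
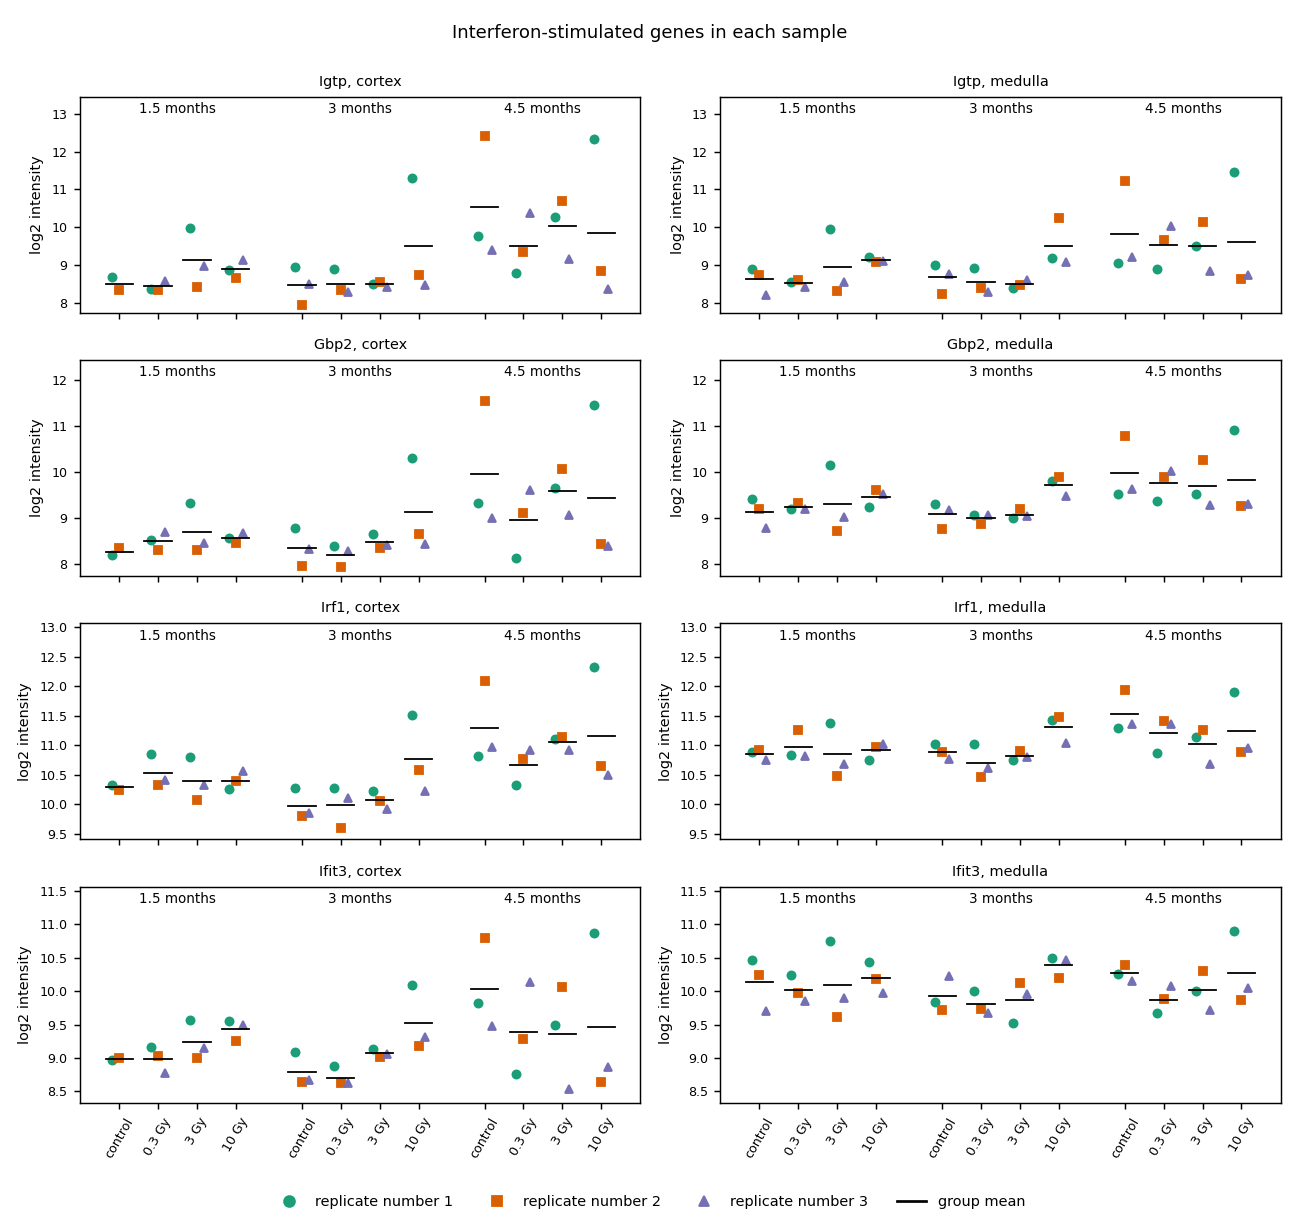
Log2 intensity of Igtp, Gbp2, Irf1 and Ifit3 in every sample, cortex on the left and medulla on the right, by time and dose; the marker gives the replicate number and the line the group mean. At 4.5 months, control sample 2 (Igtp 12.42 in the cortex) and 10 Gy sample 1 (12.33) stand above their groups in both tissues.

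The spread within groups was wide for these genes. Pooled over groups, the SD of Igtp was 1.03 in the cortex and 0.73 in the medulla, above that of 99.9% of measured genes in each tissue. Gbp2 had an SD of 0.80 and 0.46, Gbp3 of 0.59 and 0.20, Ifit3 of 0.56 and 0.32 and Irf1 of 0.47 and 0.30. The median over the 27 genes was 0.25 in both tissues, against 0.15 over all measured genes. Zbp1, a sensor of Z-form nucleic acid, and Trim25 varied no more than the median gene of the cortex, with an SD of 0.14 each.

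The genes were high in the same samples. In cortex 10 Gy sample 1 at 4.5 months, 25 of the 27 genes were the highest of their group, with a median of 0.81 above the mean of the other 2 samples. In cortex 0.3 Gy sample 3 at 4.5 months 24 were highest (median 0.45), in cortex 10 Gy sample 1 at 3 months 22 (0.34), and in cortex 3 Gy sample 1 at 1.5 months 20 (0.37). Over all measured genes, these 4 samples were the highest of their group for 35.2%, 49.8%, 38.7% and 34.9% of genes. In the medulla, 3 Gy sample 1 at 1.5 months was highest for 24 genes, 10 Gy sample 1 at 4.5 months for 23 and 3 Gy sample 2 at 4.5 months for 22. Control samples took part as well: cortex control sample 1 at 3 months was highest for 21 genes and control sample 2 at 4.5 months for 17, the latter with a largest difference of 2.83. These samples were picked out by their values, so the counts are descriptions.

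After subtraction of group means, 53.0% of the 351 pairs of these genes correlated above 0.5 in the cortex and 40.2% in the medulla, against 3.86% and 5.12% of pairs over all measured genes. The arrays share their normalisation, and genes are not independent replicates. In the cortex, Igtp correlated at 0.98 with Gbp2, at 0.93 with Irf1 and Parp14, an ADP-ribosyltransferase, and at 0.92 with Ifit3. Other genes stood outside the pattern: the median correlation with the other members was 0.01 for Ifih1 (MDA5, a sensor of long double-stranded RNA), 0.04 for Irgm1 and -0.21 for Trim25 in the cortex, and 0.16, 0.13 and -0.22 in the medulla. Irgm1 was read near the top of the scale, from 12.18 to 13.61 in the cortex. Between cortex controls of 4.5 and 3 months its other kept probe differed by 1.21 and the one used by 0.35.

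**Figure D2:**
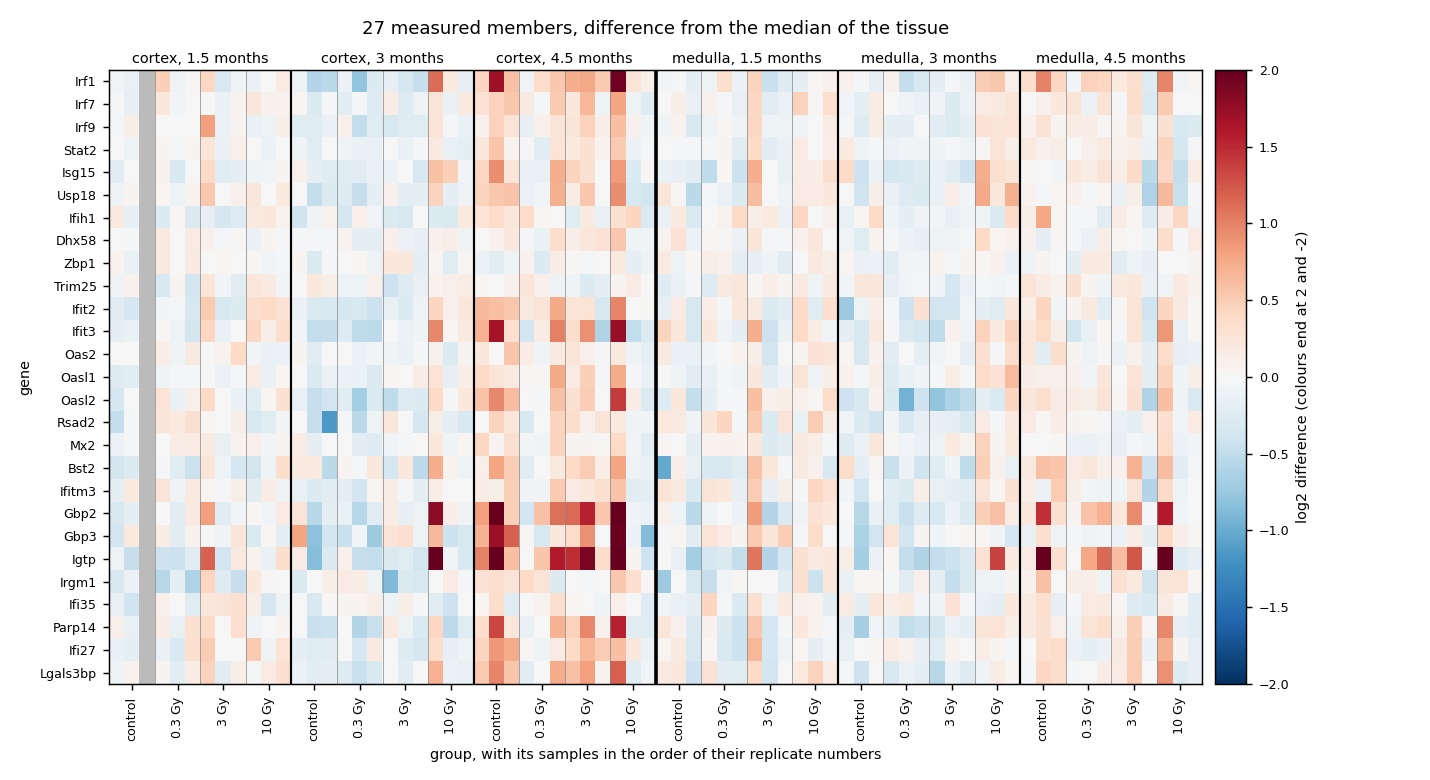
Log2 difference of each of the 27 measured genes from its median in the tissue, in each sample, by tissue, time and dose; colours end at 2 and -2, and gray marks the array left out. Red columns at 4.5 months mark single samples in which most of the genes are high, among them control sample 2 and 10 Gy sample 1.

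Cortex and medulla samples of the same dose, time and number moved together. Over 35 such pairs, the deviation from the group mean, averaged over the 27 genes, correlated with r = 0.81 (Spearman's rho 0.78), and with r = 0.71 without the 2 cortex samples farthest from the median. Within times r was 0.87 at 1.5 months (11 pairs, rho 0.54), 0.43 at 3 months (12 pairs) and 0.92 at 4.5 months (12 pairs), and it was 0.73 over the 8 control pairs and 0.82 over the 27 exposed pairs. Gene by gene, the median r of the 27 was 0.570, against 0.145 over all measured genes, and 16 of the 27 exceeded 0.5, which 5.14% of all genes did. Gbp2 (0.84), Igtp (0.79), Irf1 (0.78), Irf7 (0.72) and Ifi35 (0.71) had the closest values, and Zbp1 (-0.14) was the 1 gene below 0. With the array that was left out, the median r was 0.336, against 0.084 over all genes. The labels do not say that equal numbers mark 1 animal. Over all genes, the median r of these pairs was 0.127. Of the 35 cortex samples, 23 were closest to the medulla sample of their own number within their dose and time. The numbers were not taken to pair the samples, and whether they mark 1 animal is not known.

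**Figure D3:**
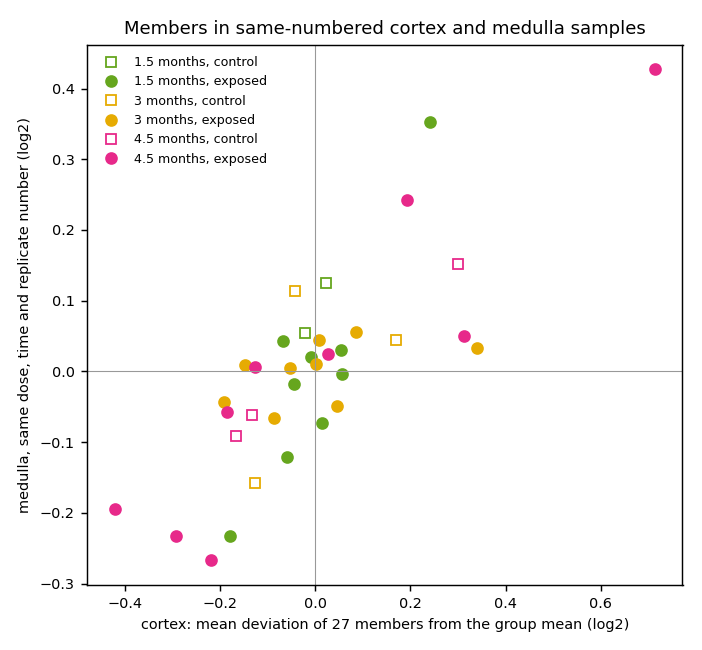
Mean deviation of the 27 genes from their group mean in each cortex sample against the medulla sample of the same dose, time and replicate number (35 pairs, log2 units); open squares are controls, filled circles exposed samples, and colours mark the time. The pairs of 4.5 months lie along a line (r = 0.92) and those of 3 months are more scattered (r = 0.43).

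Other interferon-induced genes followed the same samples. Of a further list of 52, 28 were measured, and the within-group deviation of 18 in the cortex and 14 in the medulla correlated above 0.5 with the mean deviation of the 27 genes, against 3.34% and 1.50% of all measured genes. The chemokines Cxcl9 (0.92 and 0.87) and Cxcl10 (0.91 and 0.86), which attract activated T cells through CXCR3, and the GTPase Irgm2 (0.93 and 0.85) were closest, and were named after their values were seen. Upstream genes mostly did not follow. Of 12 measured genes of nucleic acid sensing, 2 in the cortex and 1 in the medulla passed 0.5, led by Samhd1, a nucleotide hydrolase that is itself interferon-induced (0.83 and 0.70). Of 13 measured signalling genes 2 passed in the cortex and 0 in the medulla, and of 7 measured ligands and receptors 0 passed in either tissue. The probes for the ligands Ifnb1, Ifng, Ifna2, Ifna4, Ifna5 and Ifnk, and for the receptor subunit Ifnar1, were under the floor on all 71 arrays. The probe for the ligand Ifna6 was at or above it on all 71 (7.40 to 7.96), that for Ifna1 on 19 and that for Ifne on 8.

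Some leukocyte lists moved with the pattern and others did not. The log2 deviations of the markers from their group means were averaged over each list and correlated with the mean deviation of the 27 genes. For 4 measured of 6 leukocyte markers r was 0.60 in the cortex and 0.73 in the medulla. For 7 measured of 10 macrophage markers it was 0.57 and 0.54. The means of 2 measured of 5 B cell markers did not go with the pattern (-0.37 and -0.08). Nor did those of 2 measured of 5 neutrophil markers (-0.15 and -0.10). Single markers of 1 list differed. The complement subunit C1qb reached 0.77 and 0.71, Cd52 of lymphocytes and myeloid cells 0.69 and 0.73, and the granule protein Nkg7, the 1 measured of 9 T and NK cell markers, 0.67 and 0.66. Low values were those of the leukocyte marker Cd53 (0.09 and 0.36) and the macrophage markers Mrc1 (0.14 and 0.04) and Cx3cr1 (0.30 and -0.03). Nkg7 was at or above the floor on 11 arrays and under it on the rest. It counted as measured through the cortex group of 3 Gy at 4.5 months alone (intensities of 151 to 204). Cd8a, Cd4 and Ncr1 were under it on all arrays, and Ptprc, the pan-leukocyte marker, was under it on all but 10. Markers of plasmacytoid dendritic cells gave -0.21 and 0.12, of endothelium 0.06 and 0.09 and of the proximal tubule -0.12 and -0.21. Fibroblast markers gave 0.002 and 0.38, and collecting duct markers 0.33 and -0.08. Those of podocytes gave -0.36 and -0.05, of the thick ascending limb -0.29 and 0.09, of erythroid cells -0.23 and -0.31 and of adipocytes -0.24 and -0.07. These are descriptions over the same arrays, and the part of leukocyte number in the pattern was not tested.

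Absorbed dose did not move any of the 27 genes past the threshold in either tissue. Group means were compared with limma over all measured genes, with a Benjamini-Hochberg adjusted p of 0.05 as the threshold. The doses of a tissue share their controls, so their differences are given side by side. In the cortex, averaged over the 3 times, the median difference of the 27 genes from control was -0.09 at 0.3 Gy, 0.01 at 3 Gy and 0.05 at 10 Gy. None of them passed the adjusted threshold, which 0.0997%, 0.211% and 0.0111% of all genes did. Under the unadjusted threshold of 0.05 there were 0, 4 and 1 of the 27, with 8.03%, 13.2% and 3.89% of all genes. The smallest p at 0.3 Gy belonged to Ifi35, an interferon-induced leucine zipper protein (0.16 ± 0.08 SE, limma adjusted p 0.64), then Gbp3 (-0.47) and Rsad2 (0.21). At 3 Gy they belonged to Trim25 (-0.21 ± 0.07, limma adjusted p 0.228), Ifih1 (-0.23) and Ifi35 (0.19), and at 10 Gy to Ifit2 (0.28 ± 0.12, limma adjusted p 0.998), Oas2 (-0.13) and Irf1 (0.26). Irf1 at 10 Gy and Rsad2 at 0.3 Gy took the other sign with the array that was left out (-0.089 and -0.16).

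In the medulla, averaged over times, the median difference from control was -0.06 at 0.3 Gy, -0.05 at 3 Gy and 0.15 at 10 Gy. At 10 Gy 25 of the 27 genes were above control. These genes vary together within groups, so that count is a description. By limma 0 of the 27 passed at any dose, with 0.0222%, 0.0665% and 0.0111% of all genes. At an unadjusted p of 0.05, 0, 1 and 7 of the 27 passed, with 8.03%, 5.52% and 4.45% of all genes. The 7 at 10 Gy were led by Oasl1, an OAS-like protein that represses Irf7 translation (0.20 ± 0.07 SE, limma adjusted p 0.952), Usp18, which removes ISG15 and damps type I receptor signalling (0.31), and Dhx58, the LGP2 helicase (0.15). The smallest p at 0.3 Gy were those of Gbp3 (0.16), Ifit3 (-0.21) and Ifi27 (-0.17), and at 3 Gy those of Gbp3 (0.25 ± 0.09, limma adjusted p 0.711), Irf1 (-0.19) and Zbp1 (-0.07).

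In the medulla 26 of the 27 genes were higher at 10 Gy than at 0.3 Gy, a comparison that uses no controls. None of them passed the threshold, and these genes vary together within groups, so the count is a description. Oasl1 had its lowest, median and highest medulla values at 7.40, 7.75 and 8.13 over the 9 samples of 10 Gy and at 7.23, 7.42 and 7.71 over the 9 of 0.3 Gy. Usp18 had 8.31, 8.97 and 9.52 against 8.47, 8.63 and 8.85. The ranges overlapped for both, and 8 of the 9 samples of 10 Gy for Oasl1 and 7 of 9 for Usp18 lay above the 0.3 Gy mean. The difference was 0.28 ± 0.07 (SE) for Oasl1 (limma adjusted p 0.205), 0.19 ± 0.06 for Dhx58 (0.376) and 0.38 ± 0.13 for Usp18 (0.376). The median over the 27 was 0.19, against 0.00 over all genes. By limma 0 passed, as did 0% of all genes, and 9 were under an unadjusted p of 0.05 (6.95% of all genes). Of the measured macrophage markers 6 of 7 and of the leukocyte markers 4 of 4 were above 0.3 Gy as well, with medians of 0.20 and 0.18 and none past the threshold. Their summed intensities spanned 3293 to 5587 at 10 Gy and 2624 to 4674 at 0.3 Gy for macrophages, and 3023 to 4405 and 2459 to 3913 for leukocytes. Such sums weigh the brightest probe most, Lyz2 for macrophages and Laptm5 for leukocytes. Csf1r and Cd68 had no probe, Cd163 reached the floor on 1 array, and the part of these cells in the difference was not tested. In the cortex, the median of the same comparison was 0.14 with 22 genes above. Here 0 passed (0.0443% of all genes) and 4 were under an unadjusted p of 0.05 (6.45% of all genes), namely Ifit2 (0.35 ± 0.12 SE, limma adjusted p 0.573), Trim25 (0.15), Ifi35 (-0.18) and Irgm1 (0.22).

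At single times, the cortex medians stood on both sides of 0. At 1.5 months they were 0.12, 0.15 and 0.15 at 0.3, 3 and 10 Gy. With the array that was left out, a control of this time, they were -0.35, -0.28 and -0.31. None of the 27 passed by limma, a count of 0 (0%, 0.0111% and 0% of all genes) and 1, 1 and 1 were under an unadjusted p of 0.05 (3.22%, 2.39% and 3.39%). These were Rsad2 (0.50) at 0.3 Gy, Ifi35 (0.54 ± 0.15 SE, limma adjusted p 1) at 3 Gy and Ifit2 (0.62) at 10 Gy. Next in order of p came Trim25 (-0.22) and Ifi35 (0.22) at 0.3 Gy, Ifi27 (0.33) and Ifih1 (-0.26) at 3 Gy, and Ifi27 (0.40) and Irgm1 (0.30) at 10 Gy. At 3 months the medians were -0.05, 0.05 and 0.23. Here limma called 0 (0.0222%, 0.0443% and 0%), and 0, 3 and 2 were under the unadjusted threshold (5.78%, 12% and 3.34%). Trim25 at 3 Gy (-0.38 ± 0.12 SE, limma adjusted p 0.158) had values of 7.27, 7.43 and 7.55 against 7.68, 7.91 and 7.81 in controls, which do not overlap. Irgm1 (-0.45) and Rsad2 (0.50) came next at 3 Gy, and Ifit2 (0.49) and Irf1 (0.80) led at 10 Gy, with Oasl2 (0.53) next. At 0.3 Gy the smallest p were those of Rsad2 (0.31), Ifi35 (0.18) and Trim25 (-0.14). At 4.5 months the medians were -0.21, -0.20 and -0.26. Without the high sample 1 of the 10 Gy group, and with the high control sample 2 of this time kept, the last median was -0.58. By limma 0 passed (0.166%, 0.0332% and 0% of all genes) and 2, 2 and 2 were under the unadjusted threshold (9.23%, 10.4% and 4.36%). Ifi27, a mitochondrial and nuclear envelope protein, was at 11.85, 11.72 and 12.001 at 0.3 Gy against 12.27, 12.70 and 12.57 in controls (-0.65 ± 0.19 SE, limma adjusted p 0.178), with no overlap. Gbp3 (-1.23) was the other at 0.3 Gy, Ifit2 (-0.52) and Ifih1 (-0.36) passed without adjustment at 3 Gy, and Ifi27 (-0.45) and Oas2 (-0.29) at 10 Gy. The next smallest p belonged to Oasl2 (-0.53) at 0.3 Gy, Trim25 (-0.22) at 3 Gy and Gbp3 (-0.87) at 10 Gy. The groups given as not overlapping, for Trim25 and Ifi27, belong to genes named for their small p. Such separation was not counted over all genes.

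In the medulla at 1.5 months the medians were 0.06, 0.11 and 0.20 at 0.3, 3 and 10 Gy. Again limma called 0 (0%, 0% and 0% of all genes) and 0, 2 and 0 were under an unadjusted p of 0.05 (4.71%, 4.79% and 3.87%), namely Gbp3 (0.50) and the tetherin gene Bst2 (0.60) at 3 Gy, followed by Zbp1 (-0.19). The smallest p at 0.3 Gy were those of Trim25 (0.18), Gbp3 (0.24) and Ifih1 (0.24), and at 10 Gy those of Irgm1 (0.38), Trim25 (0.22) and Irf7 (0.28). At 3 months the medians were -0.07, -0.05 and 0.25. The limma fit called 0 (0.0443%, 0.0443% and 0%) and 1, 2 and 8 were under the unadjusted threshold (8.32%, 10.2% and 6.16%). At 10 Gy, Oasl1 read 7.85, 7.78 and 8.13 against 7.57, 7.45 and 7.61 in controls. Usp18 read 9.52, 8.97 and 9.47 against 8.77, 8.36 and 8.88. In both genes all 3 samples of 10 Gy lay above all 3 controls. Oasl1 and Usp18 were named for their small p, and such separation was not counted over all genes. The differences were 0.38 ± 0.13 (SE) and 0.65 ± 0.22, each with a limma adjusted p of 0.798, and Mx2, a GTPase related to dynamin, followed (0.29). At 0.3 Gy Gbp3 (0.33) and at 3 Gy Trim25 (-0.31) and Gbp3 (0.34) were the genes under the unadjusted threshold. They were followed by Trim25 (-0.22) and Oasl1 (-0.21) at 0.3 Gy and Oasl2 (-0.43) at 3 Gy. At 4.5 months the medians were -0.10, -0.18 and -0.04. The count past the limma threshold was 0 (0.0665%, 0.0111% and 0.0111%) and 1, 1 and 0 were under the unadjusted threshold (7.18%, 6.23% and 4.93%), namely Ifih1 at 0.3 Gy (-0.40) and Irf1 at 3 Gy (-0.50). Next came Ifi27 (-0.36) and Ifit3 (-0.39) at 0.3 Gy and Ifih1 (-0.34) and Ifi35 (-0.29) at 3 Gy, and at 10 Gy the smallest p were those of Dhx58 (0.18), Irf9 (-0.23) and Bst2 (-0.32).

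**Figure D4:**
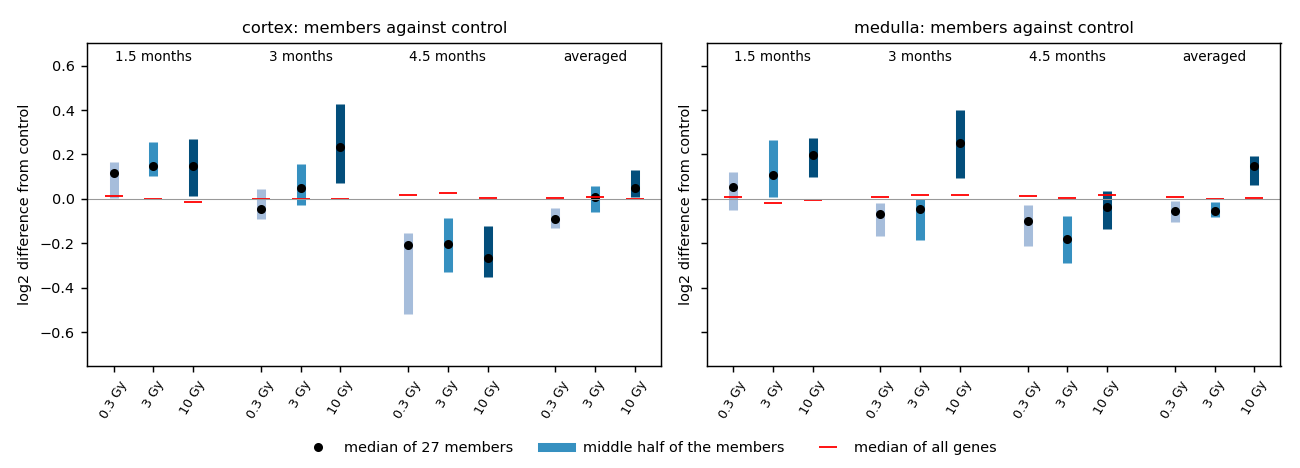
Median log2 difference from control of the 27 measured genes (points) and their interquartile range (bars) at each dose, by time and averaged, for cortex and medulla; red dashes give the median of all measured genes. The medians at 10 Gy and 3 months (0.23 and 0.25) are above 0 and those of the cortex at 4.5 months (-0.21, -0.20 and -0.26) below it, with 0 genes past the threshold throughout.

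The differences from control did not change detectably with time or tissue. In the test of dose by time, limma called 0 of the 27 genes in the cortex (0.0222% of all genes) and 0 in the medulla (0%), with 1 each under an unadjusted p of 0.05 (5.47% and 5.66%), Ifi27 and Irf9. The next smallest p belonged to Ifit2 and Irgm1 in the cortex and to Isg15 and Oasl2 in the medulla. In the test of the difference between the tissues, limma called 0 at 0.3, 3 and 10 Gy (0%, 0% and 0% of all genes), with 1, 1 and 1 under an unadjusted p of 0.05 (5.74%, 2.57% and 4.02%). These were Gbp3 (0.63, medulla minus cortex), Zbp1 (-0.19) and Oas2 (0.26). Next in order of p came Zbp1 (-0.11) and Rsad2 (-0.19) at 0.3 Gy, Rsad2 (-0.30) and Trim25 (0.15) at 3 Gy, and Gbp3 (0.46) and Mx2 (0.17) at 10 Gy.

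Between control times, Ifi27 alone of these genes passed the threshold, in the cortex, and the call depended on single arrays. Ifi27 (chr12:103434189-103440245) rose in the cortex between 3 and 4.5 months, and most of the other genes were higher at 4.5 months without passing. The cortex values of Ifi27 were 11.65, 11.60 and 11.60 at 3 months and 12.27, 12.70 and 12.57 at 4.5 months, with means of 11.62 ± 0.03 and 12.51 ± 0.22 (SD, n = 3). All 3 later samples lay above all 3 earlier ones. The difference was 0.90 ± 0.19 (SE, limma adjusted p 0.0184), and its second kept probe gave 0.89. The call was lost without either of samples 2 and 3 of either time (adjusted p 0.0711 to 0.12) and with all 36 cortex arrays (0.0676). Next came Oasl2, from 8.89, 8.58 and 8.66 to 9.61, 10.00 and 9.67 (1.05 ± 0.26 SE), and Ifit2, from 8.38, 8.21 and 8.19 to 9.14, 9.09 and 9.04 (0.83 ± 0.21 SE), each with a limma adjusted p of 0.0593. Neither gene's groups overlapped. Ifi27, Oasl2 and Ifit2 were named for their small p, and such separation was not counted over all genes.

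Of the 27 genes, Ifi27 was the 1 called (0.532% of all genes were), 25 were higher at 4.5 months with a median of 0.52, and 20 were under an unadjusted p of 0.05 (9.76% of all genes). The 27 genes vary together within groups, so their counts of direction, here and in the other control comparisons, are descriptions. Igtp had the widest difference (2.07 ± 0.76 SE, limma adjusted p 0.264), with control sample 2 of 4.5 months at 12.42 and its partners at 9.78 and 9.40. In the further list of 28 measured interferon-induced genes, Ly6e (0.84) and Parp12 (0.52) passed and 27 were higher. None of the 7 ligands and receptors, 13 signalling genes and 12 sensing genes passed by limma, with 1, 3 and 3 under the unadjusted threshold. The macrophage marker Adgre1 rose as well (0.88 ± 0.14 SE, limma adjusted p 0.0023), and all 7 measured macrophage markers were higher. Their summed intensity spanned 1495 to 1948 at 3 months and 2010 to 3357 at 4.5 months, and that of the leukocyte markers 1732 to 2383 and 2709 to 4110. Their part in the difference was not tested.

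Against 1.5 months, the cortex controls of 4.5 months were higher in 26 of the 27 genes, with a median of 0.52. By limma 0 passed (0.0111% of all genes) and 18 were under an unadjusted p of 0.05 (9.14%), led by Ifi27 (0.84 ± 0.21 SE, limma adjusted p 0.167), Ifit2 (0.87) and Oasl2 (0.88). This median was 0.08 with the array that was left out. Between 1.5 and 3 months, the median was -0.05, and -0.44 with the array that was left out. By limma 0 passed (0.277% of all genes) and 0 were under the unadjusted threshold (6.54%), with the smallest p for Irf9 (-0.25), Ifitm3 (-0.23) and Rsad2 (-0.28). In the medulla all 27 genes were higher at 4.5 than at 3 months, with a median of 0.24. By limma 0 passed (0.477% of all genes) and 6 were under the unadjusted threshold (10.5%), led by Irf1 (0.63 ± 0.23 SE, limma adjusted p 0.257), Gbp2 (0.89) and Gbp3 (0.37). Ifi27 read 11.76, 11.89 and 11.95 at 3 months and 11.91, 12.22 and 12.26 at 4.5 months there, which overlap. Against 1.5 months, 25 were higher with a median of 0.21. Here 0 passed (0.0332% of all genes) and 7 were under the unadjusted threshold (12.5%), led by Bst2 (0.80), Irgm1 (0.57) and Irf1 (0.67). Between 1.5 and 3 months 0 passed (0.554%) and Trim25 (0.26) and Rsad2 (-0.34) were the 2 under the unadjusted threshold (12.6%), followed by Irgm1 (0.33). The controls of a tissue enter several of these differences.

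**Figure D5:**
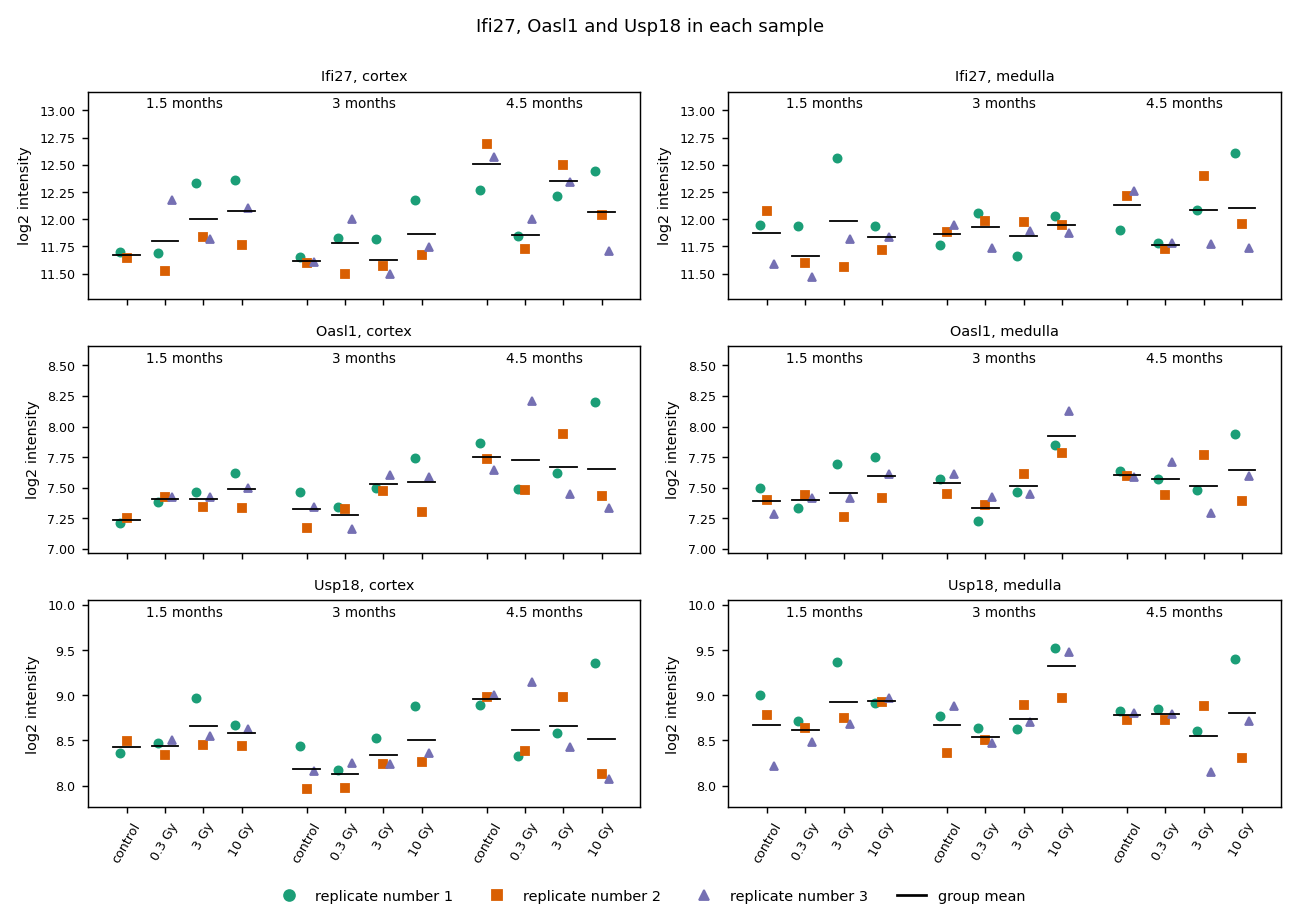
Log2 intensity of Ifi27, Oasl1 and Usp18 in every sample, cortex on the left and medulla on the right, by time and dose; the marker gives the replicate number and the line the group mean. The cortex controls of Ifi27 at 4.5 months (12.27 to 12.70) lie above those of 3 months (11.60 to 11.65), and the 10 Gy medulla samples of Oasl1 and Usp18 at 3 months above their controls.

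Among control samples the medulla and the cortex differed in 8 of the 27 genes. This share was under the 37.4% of all genes that passed in this comparison. Without adjustment 8 of the 27 passed as well, against 45.1% of all genes. The RNA-binding Ifit2 (chr19:34550550-34576534) had its lowest, median and highest values at 8.90, 9.58 and 10.07 over 9 medulla samples and at 8.16, 8.34 and 9.14 over 8 cortex samples, and 8 medulla samples lay above every cortex sample. The difference was 1.05 ± 0.13 (SE, limma adjusted p 2.3e-09). Rsad2, the antiviral enzyme viperin (chr12:26442743-26456452), had 10.05, 10.46 and 10.66 against 8.60, 9.74 and 10.21, with 7 medulla samples above every cortex sample. Its difference was 0.86 ± 0.11 (SE, limma adjusted p 1.28e-08), and 0.49 with the array that was left out (adjusted p 0.0786). Gbp3 had 10.41, 10.93 and 11.38 against 8.55, 9.82 and 11.08, with 2 medulla samples above every cortex sample and a difference of 1.22 ± 0.21 (SE, limma adjusted p 3.04e-06).

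Ifit3 (0.84), Oasl2 (0.57), Irf1 (0.57) and Ifitm3 (0.52), a membrane protein that blocks viral fusion, were also higher in the medulla, and Trim25 was lower (-0.23). Their control samples overlapped between the tissues. Irf1 did not pass with the array that was left out (0.22, adjusted p 0.536) or as the mean of its 4 kept probes (0.22, adjusted p 0.228), whose other 3 gave 0.18, 0.16 and -0.01. Igtp (-0.13), Gbp2 (0.54) and Isg15 (0.20) did not pass. In the counts that follow, higher and lower mean past the adjusted threshold, which 37.4% of all genes passed. Of the further interferon-induced genes 8 of 28 were higher and 1 lower, led by Ifitm1 (0.94), a relative of Ifitm3. Of the signalling genes 6 of 13 were higher, among them the kinase Jak2 (0.31) and the factor Irf5 of myeloid cells (0.49), and 2 were lower (Tyk2 at -0.16 and Irf8 at -0.29). Of the sensing genes the adaptor Myd88 was higher (0.29), and Tbk1, Ticam1 and Adar were lower. Of the receptors, Ifnlr1 of type III interferon was higher (0.15) and Ifngr2 of IFN-gamma lower (-0.59).

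Markers of other cells differed between the tissues too. Here again higher and lower mean past the adjusted threshold, and a marker not counted may still differ in sign. Of the 7 measured macrophage markers 6 were higher in the medulla, with summed intensities of 2556 to 7703 against 1495 to 3357 in the cortex. Of the 4 measured leukocyte markers 2 were higher, with sums of 2094 to 5641 against 1732 to 4110. The brightest probe weighs most in a sum, Lyz2 (difference 2.17) for macrophages and Laptm5 (0.53) for leukocytes. The other macrophage markers past the threshold differed by 0.23 (C1qa) to 0.72 (Adgre1). Of the 7 endothelial markers 4 were higher, with sums of 9467 to 13198 against 6545 to 9477. Among the proximal tubule markers 4 of 7 measured were lower in the medulla and 1 (Slc34a1) was higher, and of 4 markers of the thick ascending limb, which lies in both tissues, Slc12a1 (1.23) was higher and 0 were lower. Of the 5 collecting duct markers Aqp2 (1.27), Aqp3 (0.43) and Aqp4 (2.71) were higher, while Scnn1g (-0.76) and Hsd11b2 (-0.56) were lower. The part of these cells in the difference of the 8 genes was not tested.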

How the data were processed

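The deposited values were intensities on a linear scale from 72 Illumina MouseRef-8 arrays of biotin-labelled total RNA, per the labels. The deposited intensities share 1 distribution across arrays, as quantile normalisation leaves them: sorted columns differ by at most 1.26 units, and the smallest value is 95.3. The normalisation step, its software and whether a background was subtracted, are not given in the sources used here. A second deposited table, of 144 columns of signal and detection p-values, was not used, since its columns carry no sample label; a detection filter and a chip block were therefore not run.

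Intensities were taken to log2 with no offset. Probes with 1 symbol (23978 of 25697) and 150 or more on all arrays of any group were kept, 12937 in all, and each of 9024 genes was read from its brightest probe. Means per tissue, dose and time were fitted with limma 3.58.1 (lmFit, eBayes with trend) in R 4.3.3, two-sided, with Benjamini-Hochberg adjustment over all genes of each of 38 comparisons. The fit was run on simulated data with independent noise for each gene and array. That setting does not hold the shared variation of these genes within groups. Alternatives covered the left-out array, filters, probe averaging, normalisation, background, weights, blocks and single arrays. Members, gene lists and tests were chosen with earlier results of these data known. Per comparison, members past the threshold were named, and where fewer than 3 passed, the 3 with the smallest p. Figures used matplotlib 3.10.9 and pandas 2.3.3 in Python 3.11.15.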

Additional observations from a re-analysis of the deposited data

Results flagged for a closer look

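On the array that was left out of the comparisons, cortex control sample 3 at 1.5 months, 18 of the 27 measured genes were above their highest value on the other 35 cortex arrays and 0 below their lowest. The median difference from the median of the other arrays was 1.16, with 3.11 for Rsad2 (12.87 against 9.76), 3.01 for Irf1 (13.40 against 10.39), 2.20 for Irf9 and 2.15 for Isg15. Igtp (11.17) and Gbp2 (10.31) lay inside the range of the other cortex arrays, and Ifit2 (8.49) lay at their median. This signal stood in an array that no comparison uses. The array's mean correlation with the other cortex arrays was 0.648 over all genes, so these values are from an array that differed throughout, and the cause was not tested. No group had 4 or more samples, so no sample was tested as an outlier.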

How the results depend on the processing

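Over 38 comparisons, 834 counts of genes past the threshold were recomputed. Of these, 820 equalled the main count or lay within a fixed ratio of it. The larger changes lay in 5 comparisons. Among the smaller ones, control medulla against cortex lost Irf1 and Rsad2 with all 36 cortex arrays (limma adjusted p 0.536 and 0.0786). With the mean of the probes of a gene it lost Irf1 (limma adjusted p 0.228). For cortex controls at 4.5 against 3 months, where 1 gene passed, the count was 0 with all 36 cortex arrays, 3 after cyclic loess, 6 with array weights, 4 with only the arrays compared and 0 to 2 without single arrays. It was 2 with the replicate number as a block, which changed no other count. Array weights, whose estimation stopped before its tolerance in some fits, also gave 1 in the cortex for 3 Gy averaged (Trim25), 1 for 0.3 Gy at 4.5 months (Ifi27) and 1 for 3 Gy at 3 months (Trim25), and 2 in the medulla for 3 Gy at 3 months (Trim25 and Gbp3). The cause was not tested. Not every same-numbered pair correlated above 0.1, so the numbers were not taken to pair the samples. For dose and control samples, over all genes, the median correlation of their deviations was 0.012 in the cortex (9 of 24 pairs above 0.1) and 0.212 in the medulla (15 of 27). For cortex against medulla it was 0.127, with 22 of 35 above 0.1 and 23 of 35 samples closest to their own number.

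Of the single values, 7 took the other sign with all 36 cortex arrays: Rsad2 at 0.3 Gy averaged (-0.16) and at 1.5 months (-0.62), Irf1 at 10 Gy averaged (-0.089), Ifi35 at 0.3 Gy and 1.5 months (-0.22), Irgm1 at 10 Gy and 1.5 months (-0.034), and Rsad2 in the tissue difference at 0.3 Gy (0.18) and 3 Gy (0.069). Rsad2 in cortex controls, 3 against 1.5 months, ran from -0.55 to 0.030 without single arrays, the latter without 3-month replicate 3. The cause was not tested. The median r between cortex and medulla, over alternatives chosen after seeing the data, ran from 0.336 (all 36 cortex arrays) and 0.346 (3 months alone) to 0.773 (4.5 months alone). The 8 genes near the floor, 3 samples a group and 1 probe for most genes limit what these arrays can show.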
